A study of Homo sapiens with 7 samples.

Results

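The replication-dependent histone genes were all genes whose symbol of the GRCh37 era begins with HIST1, HIST2, HIST3 or HIST4. Of 70 such protein-coding genes, 63 had at least 30 reads summed over the 3 RNA-seq libraries, out of 24887 genes that met this minimum and 62238 genes in the count files. The 63 genes comprise 4 genes of the linker histone H1, 16 of H2A, 17 of H2B, 13 of H3 and 13 of H4. By cluster, 49 belong to HIST1 and 11 to HIST2, on chromosomes 6 and 1, 2 to HIST3 on chromosome 1, and 1 to HIST4 on chromosome 12. HIST1H2BE, with 31 reads in all, was the lowest gene inside the minimum, and HIST1H1T, with 29, was the highest outside it. The 7 genes below the minimum were HIST1H1A, HIST1H1T, HIST1H2AA, HIST1H2BA, HIST1H4F, HIST1H4G and HIST3H3.

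Replication-dependent histone genes supply the histones that package newly copied DNA. Their mRNAs accumulate in S phase and decay when replication ends, and they are the metazoan mRNAs that end in a conserved stem-loop in place of a poly(A) tail. The stem-loop is bound by the stem-loop binding protein SLBP and the transcript is cut just after it with the help of the U7 snRNP, while NPAT drives transcription of the clustered genes in the histone locus body. Some of these genes are also known to yield longer, polyadenylated mRNAs from signals downstream of the stem-loop.

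RNA-seq was done on MEG-01 cells, a human megakaryoblastic leukemia line, to ask how the RNA-binding protein RBM15 affects the transcriptome. The control group was 1 library of MEG-01 cells with no knockdown, and the knockdown group was 2 libraries, each of a MEG-01 line with RBM15 knocked down by another short hairpin RNA, shRBM15#1 or shRBM15#2. All 3 cultures carried lentiviral transgenes according to the labels, which do not say what the control's transgene was, and all were at passage 5 in RPMI1640 medium with 10% FBS and harvested in exponential phase. The study's methods state puromycin selection of the stable lines. A RIP-seq experiment in the same cell line, with 1 library for normal IgG and 1 for an anti-RBM15 antibody that could be assigned, gave a second readout. No source says that the libraries came from repeated cultures, so p-values measure only the spread between these lines, with a single control.

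RBM15 itself had 3970 reads in the control, 1957 in line shRBM15#1 and 2121 in line shRBM15#2. Both lines were below the control, at 54.5% and 50.7% of its level in normalised counts-per-million (CPM), and the log2 fold change of -0.93 ± 0.23 (SE) did not pass the edgeR quasi-likelihood test, with an adjusted p of 0.091 (0.0323 without a minimum count). Reads on exon bins numbered between 41629454 and 53230029 per library, and reads assigned to no gene were 32.0% of the shRBM15#1 library against 23.2% and 23.5% of the others. Of 10 megakaryocytic markers, 8 were tested, of which 5 had a fold change above 0 and 3 below it, with a median of 0.50 on the log2 scale. ITGA2B, the integrin subunit CD41, stood at 917 CPM in the control and at 475 and 606 CPM in the knockdown lines. The other 7 summed to 513, 672 and 813 CPM, with the integrin subunit ITGB3 at 6.27, 17.9 and 51.7 CPM. None of the 8 passed the edgeR test at an adjusted p under 0.05, and DESeq2 called 1 higher. At an unadjusted p under 0.05, 1 was lower and 3 higher, against 9.17% and 9.61% of all genes. PF4 and GP9, defining genes of mature platelets, had at most 5 reads in any library. Of 6 markers of other cells, the epithelial gene EPCAM had between 2441 and 3704 reads, and the other 5 had from 9 to 17 in the control and from 8 to 126 in the lines. EPCAM was lower in both lines (74.7, 54.4 and 49.2 CPM), and the other 5, which summed to 1.21, 7.71 and 3.31 CPM, all had fold changes above 0. None of the 6 was called by edgeR or DESeq2 (1 lower and 3 higher at an unadjusted p under 0.05, against those same shares of all genes). The part of these markers in the results was not tested.

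All 63 genes carried a stem-loop of 16 bases, a stem of 6 base pairs closed by a loop of 4 bases, between 23 and 68 bases after the stop codon, with a median of 36. The sequences are shown because this element defines the class and because the versions can be compared with the change of each gene. They were read from GRCh37, from 5 bases before to 5 bases after the element on the strand of the gene, and capitals mark the stem-loop. The positions are chr6:26055967-26055992 (minus strand) for HIST1H1C, chr6:26124892-26124917 (plus) for HIST1H2AC, chr6:27100095-27100120 (minus) for HIST1H2BJ, chr6:26271146-26271171 (minus) for HIST1H3G, chr6:26104540-26104565 (plus) for HIST1H4C, chr6:27107428-27107453 (plus) for HIST1H4I, chr6:27840926-27840951 (minus) for HIST1H4L, chr6:26225819-26225844 (plus) for HIST1H3E and chr6:26273615-26273640 (plus) for HIST1H2BI.
HIST1H1C: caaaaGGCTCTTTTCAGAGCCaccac
HIST1H2AC: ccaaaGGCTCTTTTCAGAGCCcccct
HIST1H2BJ: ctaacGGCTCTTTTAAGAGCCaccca
HIST1H3G: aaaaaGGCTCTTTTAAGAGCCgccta
HIST1H4C: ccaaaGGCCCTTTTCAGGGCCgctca
HIST1H4I: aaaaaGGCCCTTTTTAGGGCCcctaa
HIST1H4L: tcaaaGGCCCTTCTCAGGGCCaccca
HIST1H3E: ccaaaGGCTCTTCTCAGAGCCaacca
HIST1H2BI: ccaaaGGCTCTTCTAAGAGCCaccca

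The 10 versions of the element differed between the histone types. The first arm of the stem read GGCTCT in 49 genes and GGCCCT in 13, and those 13 were the 13 H4 genes. The version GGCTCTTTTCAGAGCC occurred in 38 genes and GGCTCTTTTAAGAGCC in 7, while the H4 genes carried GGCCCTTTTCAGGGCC in 8 and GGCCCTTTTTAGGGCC in 4. The other 6 versions occurred in 1 gene each.

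In the RBM15 knockdown lines the histone genes were lower as a group. Their reads numbered 271951 in the control library, 129759 in line shRBM15#1 and 157414 in line shRBM15#2, which is 0.511%, 0.312% and 0.30% of all reads on exon bins. The summed level was 5485 CPM in the control, against 2893 and 3011 CPM in the 2 lines, or 52.7% and 54.9% of the control. Both lines lay below the control in 59 of the 63 genes (93.7%), against 39.5% of all genes tested, and 1 gene (1.59%) lay above it in both lines, against 39.7% of all genes. In the other 3 genes, HIST2H2BF, HIST1H3E and HIST4H4, the lines lay on opposite sides of the control. The median log2 fold change of the 63 genes was -0.90, with quartiles at -1.20 and -0.55, against 0.02 over all genes. A fold change below 0 was found for 60 of the 63 genes (95.2%), against 48.9% of all genes. The lines alone gave medians of -0.86 and -0.85. In bulk RNA, fewer cells with histone mRNA and less histone mRNA per cell cannot be told apart.

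**Figure D1:**
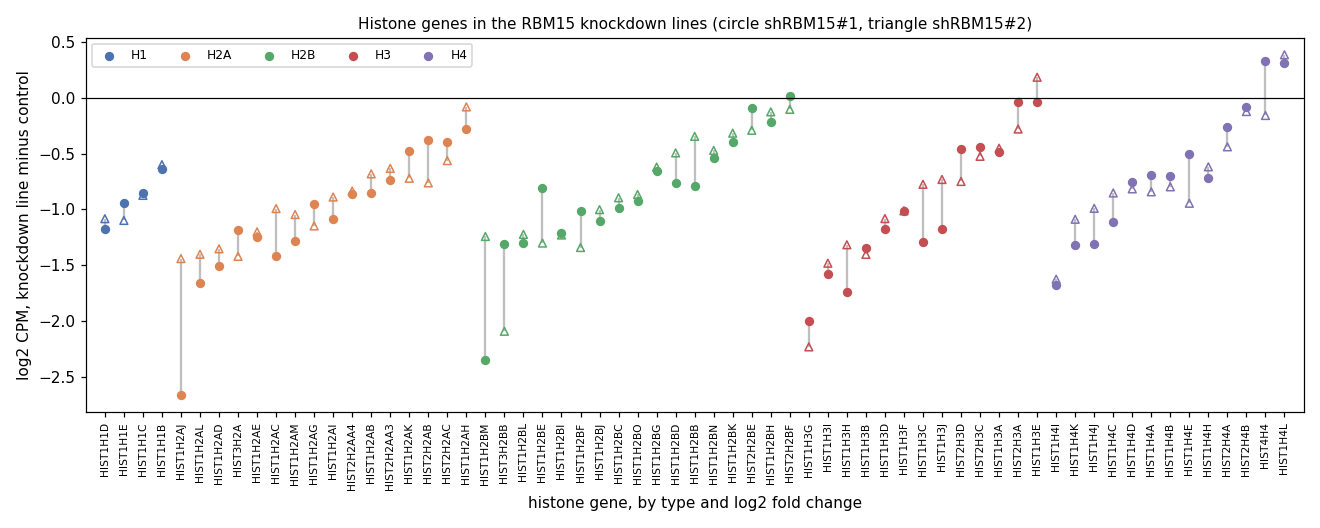
Difference of log2 CPM between each RBM15 knockdown line and the control library (vertical axis) for the 63 histone genes (horizontal axis), grouped by histone type and ordered by the fitted fold change; circles are shRBM15#1, triangles shRBM15#2. Both symbols lie below 0 in 59 genes, and both lie above it in HIST1H4L.

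Of the 63 genes, 10 were lower at an adjusted p under 0.05 in the edgeR fit over all genes, or 15.9% against 1.2% of all genes, and none was higher, against 0.534%. At an adjusted p under 0.01, 1 gene was called, against 0.277% of all genes. At an unadjusted p under 0.05, 43 of the 63 were lower and 0 higher, against 9.17% and 9.61% of all genes. DESeq2 called 27 of the 63 lower at an adjusted p under 0.05, against 2.17% of all genes, and also 0 higher. The number of calls at 0.05 moved with the settings, to 20 with size factors from DESeq2, to 32 without a minimum count and to 0 after an additive trend on gene length, GC content and expression had been subtracted. That subtraction left the median of the 63 genes at -0.06, and it moved 267 other highly expressed genes with short models to a median of 0.76. A trend fitted as a joint surface of length and level was chosen after the data were seen. It was fitted without the histone genes, whereas the additive trend was fitted with them. It left those other genes at -0.05 and the histone genes at a median of -0.74, with 56 genes lower and 12 called at 0.05. Those other genes were part of the joint fit, so their value follows in part from the fit and is no check of it.

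Other genes at a similar level, other genes with short models and some genes of short RNAs were also lower at the median, by less. The exon bins of the histone genes had a median length of 480 bases and a median GC content of 57.4%, against 3238 bases and 47.4% over all genes. Among 275 other genes with models under 700 bases and a mean level above 3 on the log2 CPM scale, 71.3% were lower and the median log2 fold change was -0.18. Among all 9799 other genes above that level, of any length, 62.5% were lower and the median was -0.14. Of 182 small nucleolar and Cajal body RNA genes, 69.8% lay below the control in both lines, against 39.5% of all genes, with medians of -0.79 with shRBM15#1 and -0.26 with shRBM15#2. Of 74 spliceosomal small nuclear RNA genes this was 41.9%, close to the share of all genes, with medians of -0.35 and 0.03. Of 84 genes of 7SK, 7SL and Y RNAs it was 51.2%, with medians of -0.35 and -0.23. These sets were taken by the start of the symbol, and pseudogene copies were not left out. The spliceosomal set took every symbol that starts with RNU and a digit, which can include U7. None of these 340 genes was called at an adjusted p under 0.05 by edgeR, and 1 was called lower by DESeq2, against 2.17% of all genes. At an unadjusted p under 0.05, 34 were lower and 4 higher, against 9.17% and 9.61% of all genes. The number lower was close to the share of all genes, and the number higher was below it. The sets differed, with 28 lower and 3 higher of the 182 small nucleolar and Cajal body RNA genes. Of the 74 spliceosomal genes 3 were lower and 1 higher, and of the 84 genes of the third set 3 and 0. Most short RNAs of these kinds, like the stem-loop mRNAs, have no poly(A) tail, but reads on pseudogene copies can come from other transcripts. No source used here states whether the libraries were selected for poly(A). The part of RNA selection in the result was not tested.

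The linker histone H1, which binds DNA between nucleosomes, was measured by 4 genes, and all 4 were lower in both lines. HIST1H1C, the histone gene with most reads, had 18124 reads in the control, 9097 in line shRBM15#1 and 10422 in line shRBM15#2. Both lines stood close to each other and below the control, at 55.5% and 54.5% of its CPM (log2 fold change -0.86 ± 0.21, adjusted p = 0.095). HIST1H1B had 11724, 6816 and 8159 reads and the smallest difference of the type (-0.62 ± 0.22, adjusted p = 0.187). HIST1H1D had 3214, 1290 and 1598 reads and the largest (-1.13 ± 0.23, adjusted p = 0.0546). HIST1H1E, with 10652, 5005 and 5242 reads, gave -1.02 ± 0.22 (adjusted p = 0.0594). The type had a median of -0.94 and its summed level in the lines was 56.2% and 55.2% of the control. No H1 gene passed the edgeR test at an adjusted p under 0.05. All 4 did at an unadjusted one, against 9.17% of all genes lower, and 2 passed with DESeq2, against 2.17%.

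The H2A genes encode a core histone that pairs with H2B. All 16 were lower in both lines, with a median log2 fold change of -1.02 and a summed level of 1151 CPM for the control, 581 CPM for shRBM15#1 and 613 CPM for shRBM15#2. HIST1H2AG had 11547, 5388 and 5492 reads in these libraries (-1.05 ± 0.22, adjusted p = 0.0569). HIST1H2AC had 10720, 3623 and 5679 reads, so that the lines differed from each other but both lay well below the control (-1.19 ± 0.24, adjusted p = 0.0522). HIST1H2AJ had the lowest fold change of the type, with 1345, 191 and 521 reads, a wide gap between its lines and no call (-1.93 ± 0.43, adjusted p = 0.0715). HIST1H2AH stood at the other end, with 4335, 3224 and 4318 reads and a level in line shRBM15#2 close to the control (-0.18 ± 0.23, adjusted p = 0.721). Called at an adjusted p under 0.05 were HIST1H2AD (2472, 784 and 1019 reads), HIST1H2AE (6043, 2301 and 2770) and HIST1H2AL (1703, 486 and 678), at -1.43, -1.22 and -1.53. The bins of HIST1H2AD cover only 8 bases, or 2.04% of its coding sequence, and those of HIST1H2AM 12%, so their values rest on the reads that touch those bases.

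**Figure D2:**
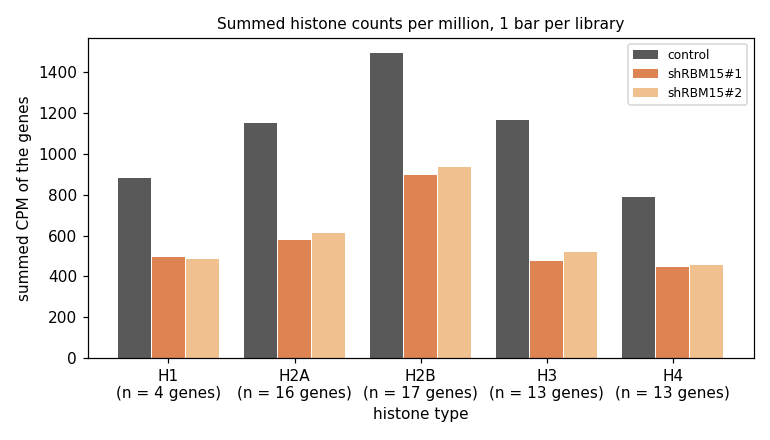
Summed CPM of the histone genes of each type (vertical axis, starting at 0) in the control library and in the shRBM15#1 and shRBM15#2 libraries, 1 bar per library. In each of the 5 types both knockdown bars are below the control bar, from 40.7% of the control for H3 with shRBM15#1 to 62.7% for H2B with shRBM15#2.

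The 17 H2B genes, which encode the partner of H2A, were lower by a median of -0.90, with a summed level of 1495, 896 and 938 CPM. HIST1H2BJ had 16526 reads in the control, 6972 in line shRBM15#1 and 8698 in line shRBM15#2 (-1.05 ± 0.21, adjusted p = 0.0518). These are sums over 9 bins, of which the largest held 5592 control reads, below the largest bins of HIST1H2BC (8071) and HIST1H2BK (7367). HIST1H2BK had 11375, 7803 and 9625 reads and differed less from the control (-0.36 ± 0.22, adjusted p = 0.411). HIST1H2BL was the only H2B gene called, with 3654, 1342 and 1648 reads (-1.26 ± 0.23, adjusted p = 0.0339). The lowest value, in HIST1H2BM, came from 115, 19 and 50 reads (-1.74 ± 0.57, adjusted p = 0.168). The value nearest to 0 was that of HIST2H2BF, with 2702, 2466 and 2651 reads, where the lines lay on either side of the control at 0.01 and -0.10 log2 units (-0.04 ± 0.23, adjusted p = 0.943).

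The H3 genes, which encode the core histone that pairs with H4, held 5 of the 10 calls and the gene with the lowest fold change of all 63. Of 13 genes 12 were lower, with a median of -1.01, and the summed level was 1166 CPM in the control against 475 and 520 CPM in the lines, or 40.7% and 44.6%. HIST1H3G had 3153 reads in the control, 710 in line shRBM15#1 and 706 in line shRBM15#2. The lines nearly coincided and both were far below the control (-2.12 ± 0.25), which made it the one histone gene called at an adjusted p under 0.01 (adjusted p = 0.00674). It was also called at this limit with size factors, with library totals, without a minimum count and by DESeq2, but not after the joint trend (adjusted p = 0.0232) or the additive trend (0.139) was removed. HIST1H3H, the H3 gene with most reads, had 14520, 3940 and 6143 (-1.51 ± 0.24, adjusted p = 0.0218). HIST1H3B had 12159, 4333 and 4846 reads (-1.37 ± 0.21, adjusted p = 0.0189). Both lines lay below the control by more than they differed from each other in both genes. HIST1H3I (3962, 1201 and 1494 reads, -1.53) and HIST1H3D (5723, 2284 and 2848 reads, -1.13) were the other calls. HIST1H3E was the exception, with 125, 110 and 150 reads and a log2 fold change of 0.08 ± 0.41, a sign that turned without the minimum count (-0.05) and without the shRBM15#2 line (-0.04).

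The 13 H4 genes all encode the same protein, and their median was -0.75. Their summed level was 791 CPM in the control, against 446 and 454 CPM in the 2 lines. HIST1H4C had 12888, 5392 and 7523 reads (-0.98 ± 0.23, adjusted p = 0.0767). HIST1H4B had 5105, 2837 and 3095 reads (-0.75 ± 0.22, adjusted p = 0.138). HIST1H4I was the only H4 gene called, with 2877, 813 and 982 reads, both lines close together and far below the control (-1.65 ± 0.24, adjusted p = 0.0151). HIST1H4L was the only one of the 63 genes above the control in both lines, with 1454, 1629 and 2003 reads, and this difference did not pass the test (0.35 ± 0.25, adjusted p = 0.488). HIST4H4, which lies apart from the clusters, had 140, 160 and 132 reads and a value of 0.11 ± 0.42, which turned to -0.03 without the minimum count and to -0.16 without the shRBM15#1 line.

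The genes of the HIST1 cluster differed from the control more than those of HIST2. Of 49 HIST1 genes 47 were lower, with a median log2 fold change of -1.01 and 10 calls at 0.05, and their summed level in the lines was 50.7% and 53.8% of the control. All 11 HIST2 genes had a fold change below 0, but the median was -0.48, and 82.4% and 72.4% of the control level remained. None was called by edgeR or by DESeq2 at an adjusted p under 0.05. At an unadjusted p under 0.05, 2 were lower, against 9.17% of all genes. The order of the clusters was the same within each type that both hold, with medians in HIST1 and HIST2 of -1.16 and -0.62 for H2A, -0.92 and -0.12 for H2B, -1.07 and -0.49 for H3, and -0.78 and -0.23 for H4. The difference between the clusters was described and not tested. After the additive trend was removed the HIST2 median was 0.06, and that of HIST1 was -0.11. The HIST3 genes HIST3H2A and HIST3H2BB had 976, 388 and 383 reads and 504, 183 and 123 reads, at -1.30 and -1.66. Within HIST1, the block near 26 Mb of chromosome 6 (28 genes, median -0.96) and the block near 27 Mb (21 genes, -1.05) had similar medians.

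**Figure D3:**
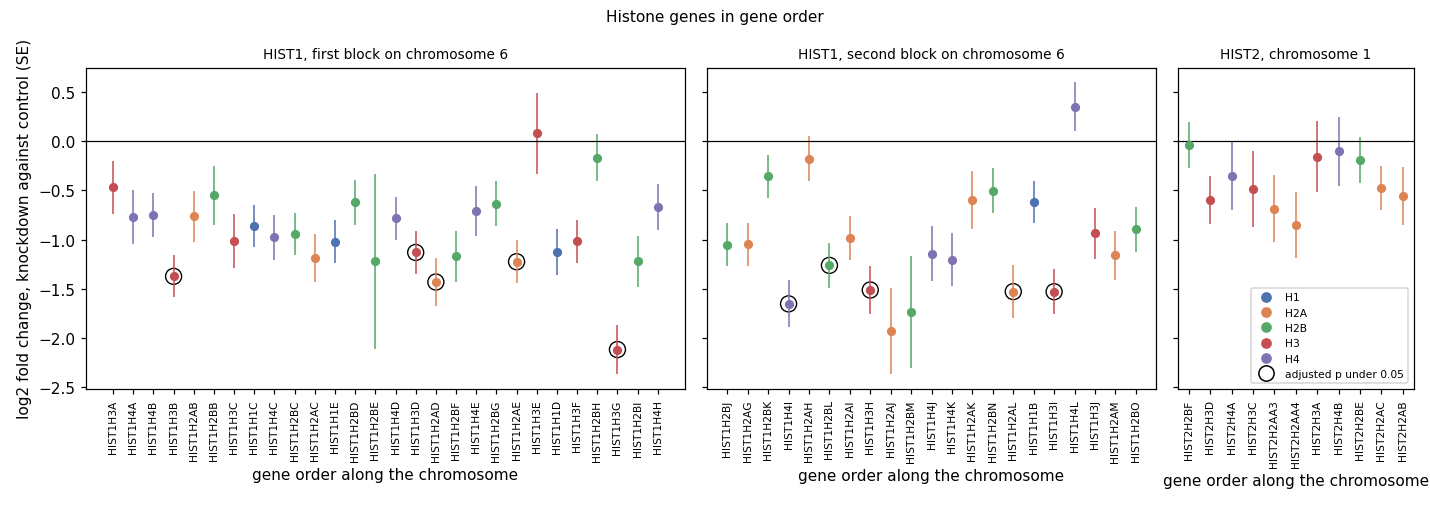
Log2 fold change of knockdown against control with its SE (vertical axis) for each histone gene in its order along chromosomes 6 and 1 (horizontal axis, 1 panel per HIST1 block and 1 for HIST2); colours give the type and open circles mark an adjusted p under 0.05. The 10 circled genes lie in the 2 HIST1 blocks, 5 in each, and no HIST2 gene is circled.

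Genes that encode the same protein did not share 1 fold change. The 10 HIST1H3 genes encode a single H3 protein, and they ranged from -2.12 to 0.08, with 38.4% and 43.4% of the control's summed level left in the lines. The 3 HIST2H3 genes, which share another H3 protein, ranged from -0.60 to -0.16, with 74.4% and 61.5% left. For the H2A protein shared by HIST1H2AG, HIST1H2AI, HIST1H2AK, HIST1H2AL and HIST1H2AM, 48.5% and 47.7% of the summed level was left. For the H2B protein shared by HIST1H2BC, HIST1H2BE, HIST1H2BF, HIST1H2BG and HIST1H2BI it was 52.0% and 52.8%. Some copies are near identical, so reads could be split or lost between them. All 50-base windows of HIST2H4A and HIST2H4B, HIST1H4J and HIST1H4K, HIST2H3A and HIST2H3C, and HIST2H2AA3 and HIST2H2AA4 occur in another histone gene. The 10 genes with at least 50% shared windows, among them HIST1H2AI and HIST1H2AJ, had a median of -0.77, and the other 53 had one of -0.94.

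Pairs of H2A and H2B genes that are transcribed away from a shared promoter region were compared within the pair. The 63 genes contained 11 such pairs, with start codons 304 to 335 bases apart. Since all 16 H2A and all 17 H2B genes had fold changes below 0, so did both genes of each pair, and only the size of the change is compared here. The partners differed by a median of 0.26 log2 units. HIST1H2BJ and HIST1H2AG had the same value at 2 decimals (-1.05), HIST1H2AJ and HIST1H2BM were both among the lowest (-1.93 and -1.74), and HIST1H2BK and HIST1H2AH were both among those nearest to 0 (-0.36 and -0.18). The largest gap was in HIST1H2BG and HIST1H2AE, at -0.64 and -1.22. A pair shares neighbouring DNA and the same libraries, so its members are not independent.

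The promoters held the motifs known from histone genes at higher shares than promoters in general. A promoter sequence from RefSeq (GRCh38.p14) was matched for 58 of the 63 genes, each from 250 bases before to 50 bases after the start, and motifs were searched on both strands. TATAAA was present in 65.5% of the histone promoters and 11.5% of all 35116. CCAAT was present in 84.5% against 34.6%, in every H1, H2A, H2B and H3 promoter matched but in 18.2% of the H4 promoters. The octamer ATTTGCAT, which OCT1 binds in H2B promoters, was present in 41.4% against 1.77%, in 76.5% of the H2B and 66.7% of the H2A promoters and in none of the 4 H1 or 11 H4 promoters. In the 11 divergent H2A and H2B pairs the start codons lie 304 to 335 bases apart. Where both partners were matched their windows overlap, so 1 motif can count for both, and the H2A and H2B shares are not independent. The 250 bases before the start are shown for HIST1H3G and HIST1H2BJ, with the motifs in capitals on either strand. HIST1H3G (chr6:26271414-26271663, minus strand) had the largest change. HIST1H2BJ (chr6:27132796-27133045, minus strand) had the highest control count of the H2B genes when counts were summed over bins.
HIST1H3G: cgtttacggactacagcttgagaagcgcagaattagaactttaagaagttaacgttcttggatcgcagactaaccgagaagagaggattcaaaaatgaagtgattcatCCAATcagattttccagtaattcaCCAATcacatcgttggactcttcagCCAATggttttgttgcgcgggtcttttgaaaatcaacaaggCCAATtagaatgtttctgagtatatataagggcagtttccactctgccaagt
HIST1H2BJ: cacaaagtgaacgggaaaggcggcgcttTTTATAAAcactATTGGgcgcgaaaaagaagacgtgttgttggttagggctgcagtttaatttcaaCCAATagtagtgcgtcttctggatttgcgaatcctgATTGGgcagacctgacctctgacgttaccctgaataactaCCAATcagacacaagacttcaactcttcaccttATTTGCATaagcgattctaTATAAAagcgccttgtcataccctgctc
The HIST1H3G stretch holds CCAAT or its reverse complement at 4 positions and no exact match to the other motifs. It does hold TATATAAG near its end, which the exact search for TATAAA did not count, so the search does not show that a TATA box is absent. That of HIST1H2BJ holds 4 such positions, 3 matches to TATAAA and 1 octamer, and 1 of those TATAAA matches overlaps another on the opposite strand. A match is a run of letters and not a measured binding site.

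The loop of the stem-loop was compared with the fold changes after the values had been seen. The commonest loop, TTTC, was held by 48 genes with a median of -0.92, the TTTA loop by 7 genes with a median of -0.94, and the TTTT loop by 5 genes (HIST1H4I, HIST1H4K, HIST2H4A, HIST2H4B and HIST2H2AC) with a median of -0.48. The TCTC loop was held by 2 genes, HIST1H4L (0.35) and HIST1H3E (0.08), which are also 2 of the 3 genes with a fold change above 0. HIST1H2BI, whose TCTA loop shares the C at the loop's second place, was at -1.22. The gene HIST4H4, the third above 0, has the common H4 version. These groups are small and were not tested.

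The gene models of some histone genes extend past the stem-loop, and the exon bins on either side of it had different fold changes. Of 59 bins tested for usage relative to their own gene, in 14 genes, 15 lay past the stem-loop and 44 lay up to it. The bins past it had a median relative change of 1.23 on the log2 scale, and 13 of the 15 were higher than their gene, whereas the bins up to it had a median of -0.03. At an unadjusted p under 0.05 there were 11 of the 15 and 0 of the 44, against 1.45% of all 234192 bins tested. The bins up to the stem-loop hold most of their gene's reads, which draws their relative values towards 0. The 11 bins lie in HIST1H2AC, HIST1H2BC, HIST1H2BD, HIST1H2BJ, HIST1H2BK and HIST1H4H, and bins of the same gene are not independent. After adjustment 2 bins were called with edgeR's diffSpliceDGE, both past the stem-loop of HIST1H2BJ, against 0.0205% of all bins. A relative value is set by the rest of the gene, so the levels are given for each side in turn.

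HIST1H2BJ had 16277 control reads up to the stem-loop, against 6709 for shRBM15#1 and 8310 for shRBM15#2, and past it 249, 263 and 388. The level up to it was 328 CPM in the control and 150 and 159 CPM in the lines, while that past it was 5.02, 5.86 and 7.42 CPM. The called bins, at chr6:27093858-27094057 and chr6:27094058-27094241 (GRCh37), had 72, 82 and 132 reads and 115, 120 and 172 reads, with relative log2 fold changes of 1.63 and 1.41 (adjusted p = 0.0244 and 0.0383). They lie 6043 and 5859 bases past the stem-loop. With every bin of at least 1 read in the test neither was called, at adjusted p values of 0.158 and 0.248, and no bin of a histone gene was.

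HIST1H2BK had 10.8 CPM past the stem-loop in the control, against 20.8 and 27.7 CPM in the 2 lines, while the level up to it was 219, 153 and 156 CPM. Both sides separated the lines from the control, in opposite directions. HIST1H2BD had 3.19, 5.69 and 10.1 CPM past the stem-loop and 160, 90.2 and 106 CPM up to it. HIST1H2BC had only 18, 48 and 56 reads past it. HIST1H2AC differed in that the level past the stem-loop was lower with shRBM15#1 and higher with shRBM15#2 (21.7, 14.0 and 26 CPM), but its share of the gene's reads was 10.0% in the control, against 17.4% and 23.9% in the 2 lines. HIST1H4H stood at 2.00, 2.05 and 3.94 CPM past the stem-loop. In HIST1H2BN, with 2.90, 1.49 and 3.02 CPM past it, the lines lay on either side of the control. Over the 10 genes with at least 30 reads past the stem-loop, the level past it was higher in both lines in 7, the share of reads past it in 8, and the level up to it was lower in both lines in 9. The downstream bin of HIST1H2BK overlaps an annotated long noncoding RNA exon on the same strand and that of HIST1H2BD lies within an antisense gene, and the libraries keep no strand, so these reads cannot be told apart from those of the neighbours. The 19 genes whose models run at least 200 bases past the stem-loop had a median fold change of -0.62, and the other 44 had one of -1.0. The 19 include HIST4H4 and HIST2 genes such as HIST2H2BE, HIST2H2BF and HIST2H4A, and the HIST2 cluster as a whole had a median of -0.48. Cluster and extension past the stem-loop were not separated here, and the difference was not tested.

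**Figure D4:**
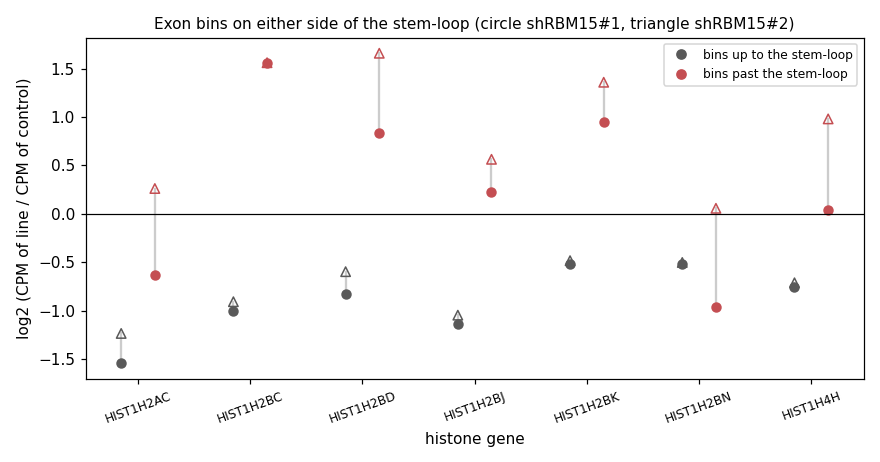
Log2 ratio of CPM in each knockdown line to the control (vertical axis) for bins up to the stem-loop (grey) and past it (red) in the 7 histone genes (horizontal axis) with at least 100 reads past it over the 3 libraries; circles are shRBM15#1, triangles shRBM15#2. The grey symbols of all 7 genes lie below 0, and each red symbol lies above the grey symbol of the same line except for HIST1H2BN with shRBM15#1.

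The genes that make and process histone mRNA did not, as a set, show the pattern of the histone genes. Of 18 genes of histone transcription and end processing, 12 were lower and 6 higher, with a median of -0.16. Among all genes 48.9% were lower, and among other genes with a mean level above 3 log2 CPM 62.5% were, with a median of -0.14. None of the 18 was called at an adjusted p under 0.05 by edgeR or DESeq2. At an unadjusted p under 0.05, 2 were lower, against 9.17% of all genes. SLBP, which binds the stem-loop, had 4974, 5293 and 6873 reads (0.31 ± 0.23, adjusted p = 0.493). NPAT, the activator of the clusters, had 2060, 2558 and 2931 reads (0.44 ± 0.24, adjusted p = 0.348). Both were above the control in both lines in CPM, by less than the test could call. CASP8AP2, a component of the histone locus body, had 2585, 1254 and 1805 reads (-0.74 ± 0.25, adjusted p = 0.181). SYMPK had 5987, 3137 and 3375 reads and the lowest fold change of the 18 (-0.84 ± 0.22, adjusted p = 0.104). CASP8AP2 and SYMPK were the 2 genes of the list that were lower at an unadjusted p under 0.05. Of 14 histone chaperone genes, 11 were higher and 3 lower, with a median of 0.06 and no call by either tool or at an unadjusted p under 0.05.

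Genes of the cell cycle were given beside them because histone mRNA depends on S phase. Of 22 genes of replication and S phase, 13 were higher and 9 lower, with a median of 0.03. At an unadjusted p under 0.05, 2 were lower (CDT1 and TYMS) and 2 higher (MCM4 and RRM2), against the 9.17% and 9.61% of all genes. The one call at an adjusted p under 0.05, against 1.2% of all genes called lower, was CDT1, which licenses origins, with 2509, 962 and 1046 reads (-1.29 ± 0.24, adjusted p = 0.038). All 10 genes of G2 and M phase had fold changes below 0, against 48.9% of all genes, from -0.72 to -0.01 with a median of -0.44. None was called by edgeR or DESeq2, although 5 had an unadjusted p under 0.05, against 9.17% of all genes lower at that limit. Their summed level was 2614 CPM in the control, against 1959 and 1909 CPM in the 2 lines. The part of the cell cycle in the result was not tested.

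The RIP-seq list of RBM15 sites, which the rule for the histone genes did not use, contained 9 sites in 9 of the 63 genes. They were 0.594% of the 1515 sites, and all 9 lay in coding sequence, where they made up 10.3% of the 87 coding sites. The histone genes are 63 of the 24887 genes tested, and the share of all genes with a site was not computed, so neither percentage is read as an enrichment. Their stem-loop lies 23 to 68 bases after the stop codon, which leaves little room for a site downstream of the coding sequence. The list holds only sites that passed the authors' own test for more reads with anti-RBM15, so higher counts in that library follow from how it was made. By type, 4 sites were in H4 genes, 2 in H3, 2 in H2A, 1 in H1 and 0 in H2B, and between 89.9% and 100% of each site lay within the coding sequence. None reached the stem-loop.

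HIST1H4E had 24 reads with normal IgG and 1190 with anti-RBM15, the highest ratio of the 9 at 49.6. HIST1H1E had most reads, 158 and 2415, and the lowest ratio at 15.3. The H4 genes HIST1H4B (31 and 921 reads), HIST1H4H (21 and 648) and HIST1H4L (11 and 412) had ratios between these. So did HIST1H3A (16 and 269) and HIST1H3D (39 and 611), HIST1H2AC (33 and 860) and HIST1H2AH (34 and 533). The median ratio of raw reads was 26.1 for the 9 sites and 32.3 for all 1515 sites. The ratios are not corrected for depth. The study's methods describe replicates of both antibodies, but the other library of each carries a label that contradicts its place in the authors' comparison, so each ratio here rests on 1 library per antibody. The sites of HIST1H4E (chr6:26204899-26205186, plus strand, 288 bases) and HIST1H4L (chr6:27840988-27841258, minus strand, 271 bases) are shown as the site with the highest ratio and the site in the gene that was above the control in both lines, from GRCh37 on the gene's strand and in lower case throughout.
HIST1H4E: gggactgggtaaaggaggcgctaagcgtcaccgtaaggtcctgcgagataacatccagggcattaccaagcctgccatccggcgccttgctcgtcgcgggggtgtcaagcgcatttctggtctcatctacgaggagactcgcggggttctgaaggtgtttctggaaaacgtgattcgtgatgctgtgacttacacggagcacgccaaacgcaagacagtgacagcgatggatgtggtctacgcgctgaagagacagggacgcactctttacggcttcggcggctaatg
HIST1H4L: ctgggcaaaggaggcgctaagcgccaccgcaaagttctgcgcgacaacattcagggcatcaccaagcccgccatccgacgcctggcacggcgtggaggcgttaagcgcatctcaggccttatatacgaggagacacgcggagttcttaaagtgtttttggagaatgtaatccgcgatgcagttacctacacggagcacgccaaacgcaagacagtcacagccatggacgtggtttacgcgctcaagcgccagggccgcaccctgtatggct

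**Figure D5:**
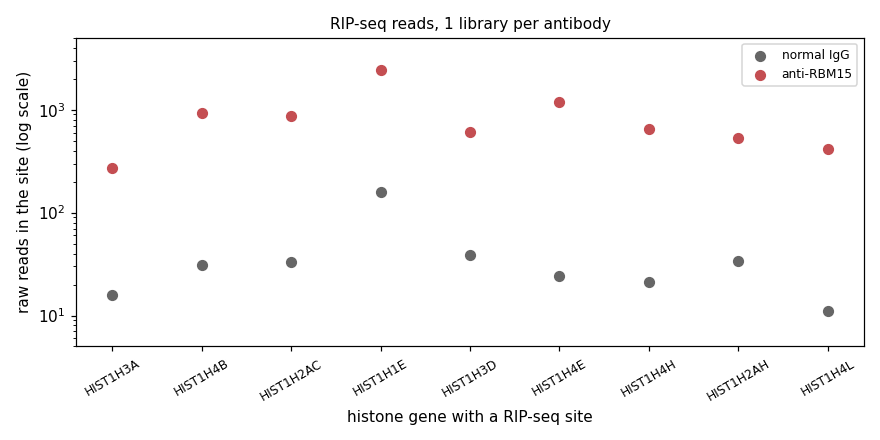
Raw RIP-seq reads (vertical axis, log scale) in the 9 listed sites that lie in histone genes (horizontal axis), with normal IgG in grey and anti-RBM15 in red, 1 library each. Each red point lies above the grey point of its gene, from 269 against 16 reads in HIST1H3A to 2415 against 158 in HIST1H1E.

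In the knockdown lines the 9 genes with a site had a median of -0.71 on the log2 scale, and the 54 genes without one had a median of -0.94. Their values ran from HIST1H2AC (-1.19), HIST1H3D (-1.13) and HIST1H1E (-1.02) to HIST1H3A (-0.47), HIST1H2AH (-0.18) and HIST1H4L (0.35). HIST1H4B, HIST1H4E and HIST1H4H stood between -0.75 and -0.67, and HIST1H3D was the one gene with a site that was called at an adjusted p under 0.05. That call includes the reads of its bin beside HIST1H2AD. Genes that share sequence also share reads in RIP-seq, and the difference between genes with and without a site was not tested.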

How the data were processed

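MEG-01 RNA-seq (1 control library and 2 RBM15 knockdown lines) and RIP-seq (4 libraries) were processed. The authors mapped the RNA-seq reads (paired-end, no strand kept) with STAR to GRCh37, guided by Ensembl GRCh37.70, and deposited raw counts of reads in exon bins. Which program counted them is not stated, although the submitters' processing notes name HTSeq 0.6.0. For the RIP-seq, the authors called peaks on the pooled coverage and deposited raw read counts of the 1515 peaks that passed DESeq. Their columns of fold changes, p-values and FDR, in this list and in a DEXSeq table, were not used. In 2 RIP libraries the antibody label contradicts the side on which the authors placed the library, and they enter no comparison.

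The histone genes and the gene lists were chosen with earlier results of these data known. Histone genes were matched to Ensembl genes by identifier (31), coding span (30) or promoter sequence (2). Bin counts were summed per gene. A read that overlaps several bins can be counted in each, so the reads given for a gene with several bins are sums over bins. The 24887 genes with at least 30 reads were tested with edgeR 4.0.16 (TMM, factors 0.931, 1.08 and 0.996, quasi-likelihood test, Benjamini-Hochberg adjustment over all genes) in R 4.3.3, at adjusted p limits of 0.01 and 0.05. With 1 control the spread comes from the 2 lines, so a difference between control cultures would count as an effect of the knockdown. Bins were tested with diffSpliceDGE, whose values are relative to the gene. DESeq2 1.42.0 was an alternative, as were other normalizations, no minimum count and removal of trends. Scripts were tested on simulated data. Reads on bins numbered 53230029, 41629454 and 52458857, and reads in lines that name no gene (23.2%, 32.0% and 23.5%) were left out. Stem-loops and RIP sequences were read from GRCh37 and promoters from RefSeq tables, with an annotation newer than that of the counts. Named genes were those called at 0.01, the 2 with most control reads and both extremes of fold change in each type, those with a RIP site, a called bin or lines on opposite sides of the control, RBM15, SLBP, NPAT and CASP8AP2. Others that appear, such as further genes called at 0.05, CDT1 and SYMPK, were added after their values were seen. A further gene list is not reported here.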

Additional observations from a re-analysis of the deposited data

Results flagged for a closer look

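One of the RIP-seq libraries that entered no comparison carried a high signal in the histone genes. At the 9 sites it had 6158 reads in sum, against 367 in the normal IgG library and 7859 in the anti-RBM15 library. Its label names normal immunoglobulin, while the authors' comparison placed it on the anti-RBM15 side. The other library in this position, labelled with the RBM15 antibody, had 409 reads. Over all 1515 sites the sums were 28387 reads with normal IgG, 807871 with anti-RBM15, 610915 in the first unassigned library and 28845 in the other. Which label is right was not tested.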

How the results depend on the processing

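The calls depended on the settings more than the direction did. At an adjusted p under 0.01 the 1 call became 3 with size factors, 22 without a minimum count, 10 with DESeq2 and 0 after removal of either trend. At 0.05 the 10 calls became 20, 32, 27 and, with the additive trend, 0. The count of 60 genes with a fold change below 0 fell to 37 with the additive trend. The median of -0.90 was -0.74 with library totals, -1.03 without a minimum count, -0.060 with the additive trend and -0.74 with the joint trend, and it ranged from -0.86 to -0.85 without 1 knockdown line. The median of all genes was 0.17 with library totals and 0.44 without a minimum count, against 0.02. Signs turned for HIST4H4 and so for HIST4 (-0.031 without a minimum count, and from -0.16 to 0.33 without 1 line), HIST1H3E (-0.051 without a minimum count, and from -0.039 to 0.18 without 1 line), the HIST2 median (0.065 with the additive trend) and HIST1H2AD (0.97 with the joint trend, where its model of 8 bases lies at the edge of the fit). The 2 called bins became 0 with every bin of at least 1 read. RBM15 passed without a minimum count (-1.06, adjusted p = 0.0323). The causes of these changes were not tested. The single control could not be left out. No paired analysis was possible, because the labels pair no knockdown line with the control and there was a single control.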
